A study of Sus scrofa with 6 samples.

Results

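The genes described are those that bring proteins into the endoplasmic reticulum (ER) and carry them on to the Golgi apparatus, with the coats, tethers and receptors of that route. They were taken by symbol, as every probe set whose single gene symbol in the array annotation starts with SEC, SSR or SRP and a digit, or with COPA, COPB, COPE, COPG, COPZ, TMED, TRAPPC, TRAM, ARFGAP, GOLGA or KDELR. This gave 102 probe sets of 61 genes, out of 23999 probe sets tested, and 84 of the 102 had a mean signal above the array median. The symbol rule uses no measured value, although the gene group was picked with earlier results of these data known. Epithelial cells were scraped on day 6 from both uterine horns of 3 Landrace x Large White crossbred sows, in which one oviduct had received spermatozoa and the opposite one diluent alone, by laparoscopy. Each sow gave a horn with blastocysts (embryos) and a horn with unfertilized oocytes, and each horn had its own Affymetrix porcine array, so there were 3 arrays per group. The 2 horns of a sow share one animal and its circulating hormones, and the arrays with the same replicate number were taken as one sow. The deposited values are linear MAS5 intensity signals in arbitrary units, and differences are given as log2 ratios of embryos to oocytes after cyclic loess normalization, so that a negative value means lower with embryos. SE is the standard error of that ratio, and the p given for a probe set is that of the limma fit across all probe sets, unadjusted. The p named as paired is from a second such fit with sows as blocks. Where several probe sets read one gene, they are told apart below by their mean signal, from the brightest to the dimmest, which ranks probes and not transcripts. Signals are listed for sows 1, 2 and 3 in that order, oocyte horns first.

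Secreted and membrane proteins are recognised by the signal recognition particle (SRP) as they leave the ribosome, are threaded through the SEC61 channel, and lose their signal peptide to signal peptidase. COPII coats then bud vesicles from the ER and COPI coats return escaped ER proteins and receptors from the Golgi, while TRAPP complexes and golgins catch vesicles at the Golgi. The uterine epithelium relies on this route, since in the pig it feeds the free blastocyst with secretions for a long time before attachment.

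The median deposited signal was 30.6 to 35.8 on the 6 arrays. Most epithelial markers were bright in both groups (MUC1 was dim), with EPCAM at a mean of 2217 with oocytes and 2161 with embryos, and KRT8 at 2988 and 3094. The sum over the 7 measured of 8 epithelial markers ran from 7872 to 10161 with oocytes and from 7652 to 10426 with embryos. Markers of other cells were present as well, and the scraped cells were not epithelium alone. Over 5 of 6 stromal markers the sums were 3305 to 7022 with oocytes and 3220 to 6559 with embryos, and over 4 of 5 smooth muscle markers 458 to 2141 and 572 to 1365. The 4 measured of 6 leukocyte markers summed to 51.1 to 111 and 63.2 to 87.1, and the 4 endothelial markers to 187 to 240.3 and 181 to 272. In each of these lists the ranges of the 2 groups overlapped, and the part of other cells in the results was not tested. The 5'/3' signal ratio of the control transcripts, which is lower in degraded or incompletely copied RNA, was lower in the embryo horn of every sow. For GAPDH the oocyte horns of sows 1 to 3 had 0.355, 0.200 and 0.226 and the embryo horns 0.243, 0.130 and 0.199, and for actin 0.219, 0.105 and 0.118 against 0.149, 0.0577 and 0.104. The part of this ratio in the results below was not tested beyond a fit with it as a covariate.

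Most of the ER and Golgi probe sets lay slightly lower with embryos. Of the 102, 73 had a negative log2 ratio and 29 a positive one, where 11802 of all 23999 probe sets were negative. With the brightest probe set of each gene 38 of 61 were negative, beside 3235 of 6765 genes of the array. The 102 had a median of -0.09, quartiles at -0.22 and 0.02 and extremes at -1.43 and 1.11, where the median over all probe sets was 0.01. The median lay at -0.09, -0.09 and -0.06 in sows 1, 2 and 3. In all 3 sows 32 (31.4%) lay lower with embryos, beside 14.8% of all probe sets, and 7 (6.86%) were higher in all 3, beside 14.9%. Among probe sets of above-median signal 26 of 84 members were lower in all 3 sows, beside 16.5% of such probe sets of the array, and 7 were higher in all 3, again beside 16.5%. When 1 sow was left out, 37.3%, 40.2% and 50% of the members were lower in both remaining sows (without sows 1, 2 and 3), beside 25.6%, 25.4% and 28.1% of all probe sets. The 7 were probe sets of SRP19, TRAM2, SEC23A, COPZ2, KDELR2, TRAPPC4 and GOLGA1. In cells scraped in bulk, a lower signal from fewer cells of a type and one from less RNA per cell cannot be told apart.

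These differences were small against the spread between arrays. In the fit without the sow 0 of the 102 passed an adjusted p of 0.05 (smallest 1.00, Benjamini-Hochberg over all 23999 probe sets), as did 0% of the array. At an unadjusted p under 0.05 there were 3 members on the lower side (1.59% of all probe sets) and 1 on the higher side (1.3%). In the paired fit the smallest adjusted p was 0.221 and still 0 passed, but 19 members on the lower side had an unadjusted p under 0.05 (18.6% of the members, 4.95% of all probe sets) and 3 on the higher side (2.94%, against 3.75%). The 2 groups of arrays did not overlap for 4 members lower with embryos (3.92%, beside 3.98% of the array) and 1 higher (0.98%, beside 4.03%), so this measure gave no more than the array as a whole. In 63 of the 102 members the SD between the sows was larger than the difference between the horns (61.8%, against 62.4% of all probe sets).

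**Figure D1:**
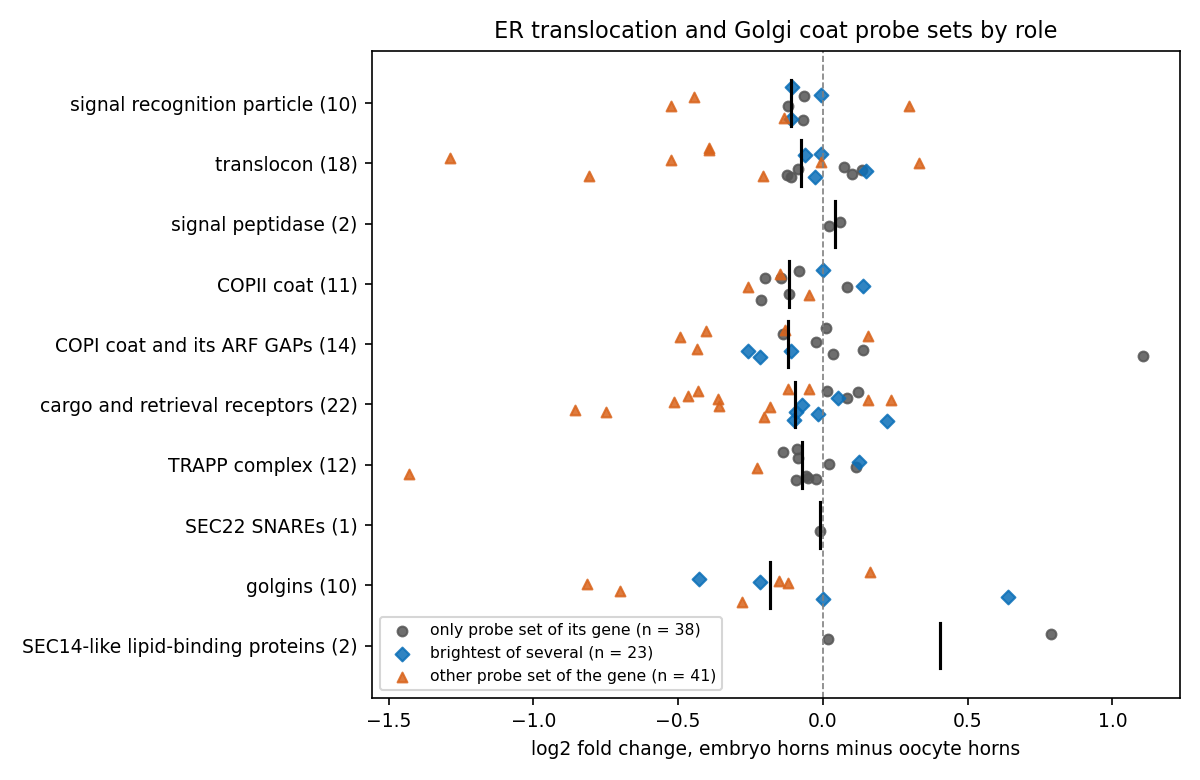
Log2 fold change, the log2 ratio of the text, (x axis, embryo horns minus oocyte horns) of each of the 102 probe sets, in rows by role with the number of probe sets in brackets and a black bar at the median. Grey circles are the only probe set of a gene, blue diamonds the brightest of several and orange triangles the other probe sets of the same genes, and the values most to the left, down to -1.43, are orange.

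The lower values lay mostly at the dimmer probe sets of genes that have several. Of the 61 genes 38 have 1 probe set, and 23 have 2 to 4, 64 in all. For genes with 1 probe set the median log2 ratio was -0.02, and 6 of 38 (15.8%) were lower in all 3 sows, beside 13.5% of the array's genes with 1 probe set. For the brightest probe set of the genes with several it was -0.03, and 5 of 23 (21.7%) were lower in all 3, beside 13.9%. For the other probe sets of the same 23 genes the median was -0.28, and 21 of 41 (51.2%) were lower in all 3 sows, beside 24.4% of such probe sets on the array, whose median was -0.12. In the paired fit 16 of these 41 had an unadjusted p under 0.05 on the lower side (39%, against 11% of the array's). The brightest probe sets of the 23 genes gave 3 (13%, against 4.78%) and the 38 single ones 0 (against 3.51%). The other probe sets of the array were dimmer than those of the members, with a median log2 signal of 4.09 against 5.81. Among other probe sets of above-median signal, 15 of 26 members (57.7%) were lower in all 3 sows, beside 35.6% on the array. In the paired fit 12 of these 26 had an unadjusted p under 0.05 on the lower side (46.2%, against 20.5%). The lower position of the dimmer probe sets was therefore also found over the whole array, at a smaller size. In 19 of the 23 member genes (82.6%) the median of the other probe sets lay below the brightest one, as in 63.2% of 2261 such genes of the array. The exceptions were ARFGAP3, GOLGA2, SEC61G and SRP19. Among above-median probe sets, those of 17 member genes could be compared, and they differed in sign in 5 (KDELR2, ARFGAP3, SRP19, TRAPPC4 and SEC23A), which is 29.4% against 54.9% of 991 genes of the array. The median distance between the highest and lowest of a gene was 0.35 on the log2 scale against 0.26, and it was widest for TRAM1 (0.78), KDELR2 (0.69) and ARFGAP3 (0.65). Where along a transcript each probe set lies was not analysed here.

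**Figure D2:**
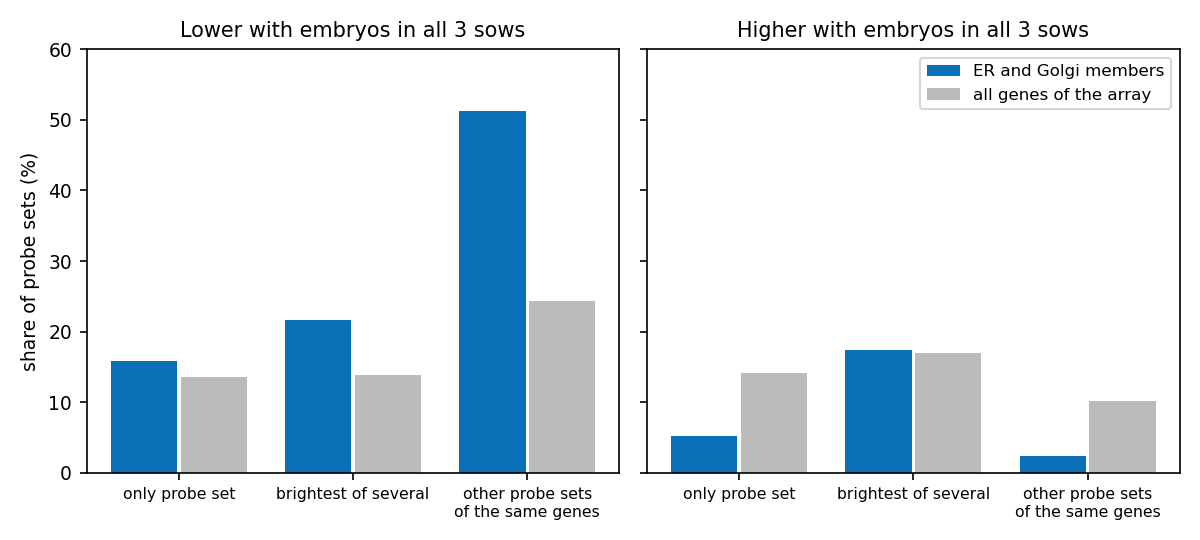
Share of probe sets (y axis, percent) that were lower (left) or higher (right) with embryos in all 3 sows, for the only probe set of a gene, the brightest of several, and the other probe sets of the same genes. Blue bars are the 102 ER and Golgi members and grey bars all genes of the array with 1 symbol, and the tallest bar is that of the other probe sets of member genes, at 51.2% against 24.4%.

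Among the SRP subunits 9 of 10 probe sets had a negative log2 ratio, with a median of -0.11. In all 3 sows 5 lay lower and 1 higher, and 0 had an unadjusted p under 0.05. SRP9, which with SRP14 slows the ribosome, gave 568, 439 and 566 in the oocyte horns of sows 1 to 3 and 568, 425 and 507 in the embryo horns (log2 ratio -0.07, SE 0.17). The horns were nearly level in sows 1 and 2, and the groups overlapped. SRP19, which binds the RNA of the particle, gave 489, 636 and 557 with oocytes and 466, 599.6 and 494 with embryos, read by its brighter probe set (log2 ratio -0.11), lower in each sow. Its dimmer probe set went the opposite way in each sow, from 114, 147 and 92.4 to 139.6, 160.2 and 129 (log2 ratio 0.30, SE 0.20, unadjusted p = 0.173, and 0.0274 when paired), although the groups overlapped. SRP54, which holds the signal peptide, and SRP14 lay at -0.06 and -0.12, and SRP14 was lower only in sow 3. SRP68 and SRP72, partners in the particle, lay at -0.01 and -0.11 at their brightest probe sets and at -0.45 and -0.52 at dimmer ones, with the dimmest of SRP72 at -0.13.

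The translocon, with 18 probe sets, had a median of -0.07. Of these 13 lay below 0 and 5 above. In all 3 sows 8 were lower and 1 was higher, beside 14.8% and 14.9% of all probe sets. Where a gene has several probe sets, 24.4% of those other than the brightest were lower in all 3 sows on the array. The channel subunits were close to level, with SEC61A1, its pore, at -0.06, SEC61B at 0.14 and SEC61G at 0.15 at their brightest probe sets. SEC61G gave 616, 644 and 858 in oocyte horns and 724, 798 and 805 in embryo horns (SE 0.14, unadjusted p = 0.312). It was higher with embryos in sows 1 and 2 and lower in sow 3, and the groups overlapped. The dimmer SEC61A1 probe sets lay at -0.01 and, at a signal of only 48.0, 8.0 and 17.2 with oocytes and 18.5, 1.7 and 15.0 with embryos, at -1.29, while a very dim one of SEC61G lay at 0.33. Subunits of the translocon-associated protein complex, which helps signal peptides open the channel, lay close to 0 as well, with SSR2 at -0.11 and lower in each sow, and SSR3 at 0.10. SSR4, the brightest of them, gave 1619, 1912 and 2039 against 1447, 1821 and 1984, a log2 ratio of -0.09 (SE 0.14), a little lower in each sow. SEC62, which with SEC63 serves proteins imported after translation, lay at -0.13.

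For SEC63 and TRAM1 the probe sets of one gene differed. SEC63, a J-domain protein that recruits the ER chaperone BiP to the channel, gave 387, 307 and 259 with oocytes and 256, 243 and 221 with embryos at the second brightest of 3 probe sets. As deposited every embryo horn was below every oocyte horn, by little between sows 1 and 3, and after normalization the groups overlapped (log2 ratio -0.39, SE 0.18, unadjusted p = 0.0545, and 0.00264 when paired). At its brightest probe set the signal was 388, 483 and 521 against 432, 492 and 455, a log2 ratio of -0.01 (SE 0.13). The dimmest gave 153, 82.0 and 71.4 against 84.2, 47.0 and 76.8 (log2 ratio -0.52), lower in sows 1 and 2 but not in sow 3.

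TRAM1, a membrane protein that lies beside the nascent chain in the translocon, has 4 probe sets. The brightest gave 2071, 2031 and 2278 with oocytes and 2167, 2018 and 2040.0 with embryos, a log2 ratio of -0.03 (SE 0.10), with no common direction among the sows. At the dimmest the signal was 117, 59.3 and 94.6 against 79.5, 31.6 and 49.4, a log2 ratio of -0.81 (SE 0.35, unadjusted p = 0.0494, and 0.000393 when paired), the lowest of the above-median members. It was lower in each sow, but the sows differed so much that the groups overlapped. The second brightest, with 337, 233 and 282 against 294, 175 and 192, lay at -0.40 (unadjusted p = 0.125, and 0.00232 when paired), and the one after it, with 119, 146 and 171 against 113, 131 and 132, at -0.21. Both were lower in all 3 sows. TRAM2, its relative, was slightly higher with embryos in each sow, at 0.07 (SE 0.13).

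**Figure D3:**
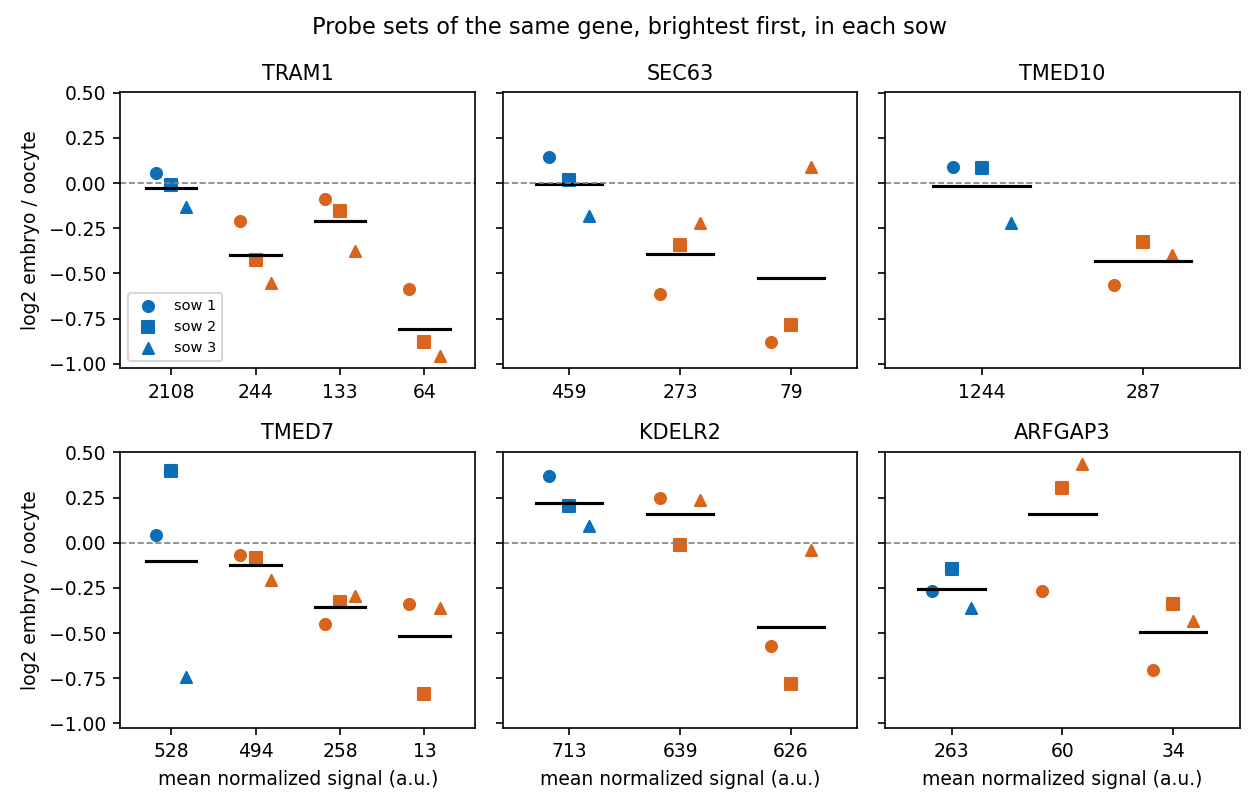
Log2 ratio of the embryo horn to the oocyte horn (y axis) in each sow for every probe set of 6 genes, ordered from the brightest (blue) to the dimmest (orange) with the mean normalized signal in arbitrary units under each. Symbols are sows and black bars the log2 ratio, which for TRAM1 runs from -0.03 at the brightest probe set to -0.81 at the dimmest, and neither TRAM1 nor ARFGAP3 follows the order of signal throughout.

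The catalytic subunits of signal peptidase did not differ beyond their spread. SEC11A gave 2127, 2779 and 2709.6 in the oocyte horns and 2119, 2983 and 2828 in the embryo horns, a log2 ratio of 0.06 (SE 0.16). SEC11C gave 477, 431 and 418 against 438, 517 and 400.3, a log2 ratio of 0.02 (SE 0.14). Both had higher and lower embryo horns among the 3 sows.

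COPII coat probe sets numbered 11, and all had a mean signal above the array median. Their median was -0.12 and their range from -0.26 to 0.14. In all 3 sows 2 were lower and 1 higher, beside 14.8% and 14.9% of all probe sets. At an unadjusted p under 0.05 from limma there were 0 without the sow. In the paired fit there was 1, on the lower side (4.95% of all probe sets). SEC31A, of the outer cage, gave 1314, 1380.0 and 1378 with oocytes and 1192, 1421 and 1463 with embryos at its brightest probe set, a log2 ratio of -0.00 (SE 0.11). Its other probe sets lay at -0.26 and -0.05, and SEC13, its partner in the cage, at -0.20. SEC23B, of the inner coat, gave 413, 403 and 395 against 362, 335 and 426, a log2 ratio of -0.12 (SE 0.13), lower in sows 1 and 2 and higher in sow 3. SEC23A lay at 0.14 and -0.15 at its pair of probe sets. The cargo-binding subunits SEC24C and SEC24D lay at -0.21 and -0.15, SEC23IP, which binds SEC23 at exit sites, at -0.08, and SEC31B at 0.08.

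In the COPI coat and its ARF GTPase-activating proteins the median of 14 probe sets was -0.12, with 9 below 0 and 5 above. In all 3 sows 4 were lower and 1 higher, beside 14.8% and 14.9% of all probe sets. COPB1, the beta subunit, gave 174, 200.2 and 179.8 with oocytes and 176, 121 and 128 with embryos at the dimmer of 2 probe sets. The horns of sow 1 were level, and those of sows 2 and 3 lower with embryos. After normalization every embryo horn lay below every oocyte horn, in sow 1 by almost nothing (log2 ratio -0.40, SE 0.18, unadjusted p = 0.0494, and 0.0148 when paired). Its brighter probe set gave 799, 717 and 858 against 739, 661 and 643, a log2 ratio of -0.22 (unadjusted p = 0.115, and 0.024 when paired), lower in each sow. COPB1 was thus one of the genes in which both probe sets lay on the lower side. COPA, the alpha subunit, gave 543, 570.0 and 578 against 581, 579.7 and 507, a log2 ratio of -0.02 (SE 0.11), with no common direction among sows. The gamma subunits COPG1 and COPG2 lay at 0.04 and -0.14 and the zeta subunits COPZ1 and COPZ2 at 0.01 and 0.14. COPG2 was lower only in sow 2. COPB2 lay at 1.11 but was dim, with 2.7, 16.5 and 22.2 against 23.3, 29.1 and 15.1.

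ARFGAP3, which starts the uncoating of COPI vesicles by switching off ARF1, gave 294, 278 and 291 with oocytes and 247, 252 and 226 with embryos at its brightest probe set. The highest embryo horn was below the lowest oocyte horn, and the log2 ratio was -0.26 (SE 0.12, unadjusted p = 0.0637, and 0.0156 when paired). The dimmest, with 71.0, 27.3 and 38.7 against 44.7, 20.9 and 29.2, lay at -0.49. In contrast the one between them, with 55.5, 56.6 and 63.7 against 46.9, 68.5 and 87.2, lay at 0.16 and was higher with embryos in sows 2 and 3. ARFGAP2, which acts on the same coat, lay at -0.11, -0.13 and -0.43 from its brightest to its dimmest probe set. The brightest was lower only in sow 3.

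**Figure D4:**
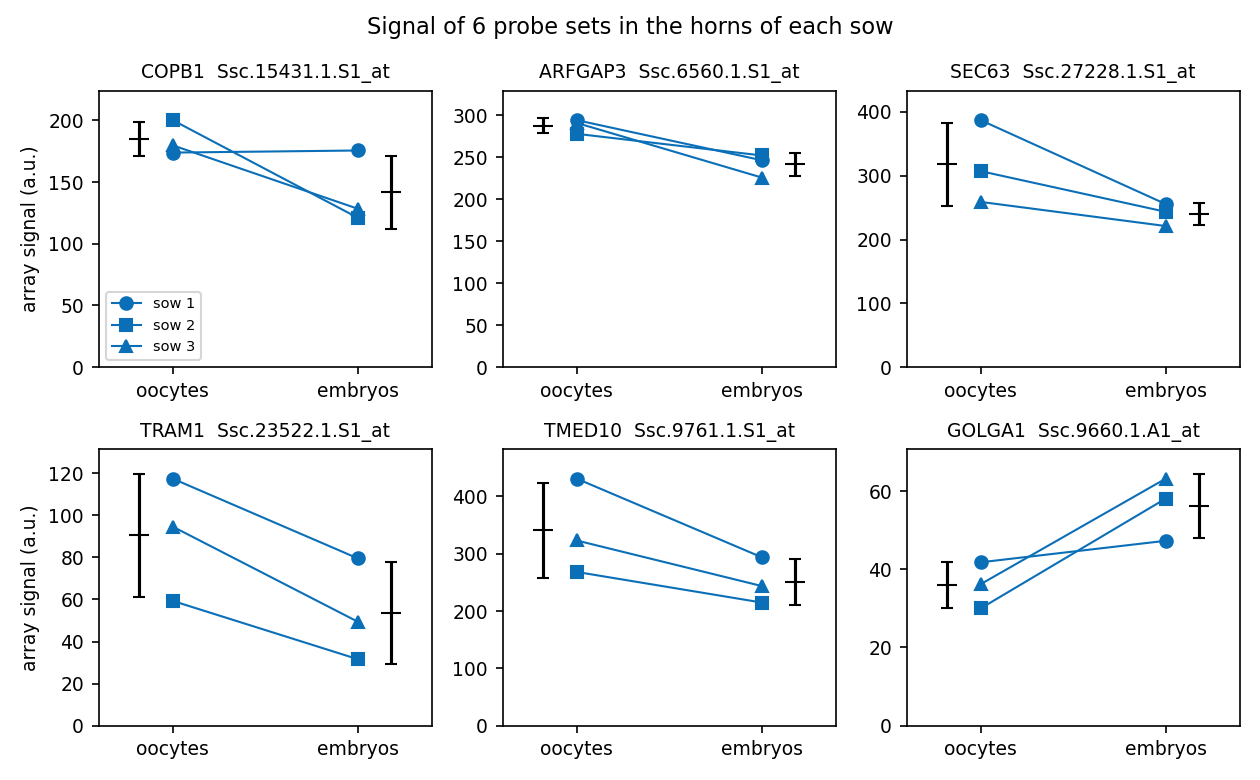
Signal as deposited (y axis, arbitrary units, starting at 0) in oocyte and embryo horns for 6 of the probe sets. A line links both horns of a sow, whose symbol marks its points, and means with SD over 3 sows are in black. GOLGA1 is higher with embryos in all 3 sows and the others are lower, except for COPB1 in sow 1 (174 and 176).

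The cargo and retrieval receptors, 22 probe sets of 9 genes, had a median of -0.10, with 15 below 0 and 7 above. In all 3 sows 8 were lower and 1 higher, beside 14.8% and 14.9% of all probe sets. TMED proteins (the p24 family) ride in both coats and sort cargo. TMED2 gave 1314, 1256 and 1761 with oocytes and 1425, 1561 and 1668 with embryos, a log2 ratio of 0.12 (SE 0.15), higher in sows 1 and 2 and lower in sow 3. TMED10, its partner in the complex, gave 1151, 1223 and 1382 against 1235, 1299 and 1166 at its brighter probe set, a log2 ratio of -0.02. At the dimmer one it gave 431, 268 and 323 against 294, 215 and 244, a log2 ratio of -0.43 (SE 0.21, unadjusted p = 0.0717, and 0.00066 when paired). The latter was lower in every sow, while the groups overlapped because sow 1 was the highest in both. TMED3 lay at 0.01, the TMED4 probe sets at -0.09, -0.18 and -0.05, and those of TMED5 at -0.07, -0.36, 0.24 and -0.20, the last 3 below the median signal.

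TMED7 has 4 probe sets, and the one that the study reads as TICAM2 (a Toll-like receptor adaptor) is the second dimmest. The array annotation gives it to TMED7, and the genes are neighbours in the current pig gene table with 0 protein-coding genes between them. The study also reports lower TICAM2 with blastocysts by qPCR with TICAM2 primers, which was not examined here. This probe set gave 375, 225 and 298 in oocyte horns and 276, 180.0 and 241 in embryo horns, lower in each sow, with overlapping groups (log2 ratio -0.36, SE 0.23, unadjusted p = 0.162, and 0.00218 when paired). The second brightest, with 559, 438 and 556 against 536, 416 and 478, lay at -0.12. The brightest differed more between sows than between groups, with 592, 366 and 752 against 615, 485 and 445 and a log2 ratio of -0.10 (SE 0.26). The dimmest, with 18.5, 13.5 and 21.9 against 15.2, 7.2 and 17.8, lay at -0.51.

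KDEL receptors return ER chaperones from the Golgi, and the probe sets of KDELR2 went in opposite directions. The brightest gave 475, 774 and 779.9 with oocytes and 617, 897 and 821 with embryos, higher in each sow (log2 ratio 0.22, SE 0.21, unadjusted p = 0.312, and 0.0191 when paired). The next gave 525, 632 and 668 against 627, 631 and 777 (log2 ratio 0.16, SE 0.14). In contrast the dimmest of the 3, at a like signal, gave 922, 716 and 602 against 624, 419.5 and 579, lower in each sow but by little in sow 3 (log2 ratio -0.46, SE 0.21, unadjusted p = 0.0578, and 0.00359 when paired). KDELR1 lay at 0.08, and KDELR3 at 0.05 at its brightest probe set and at -0.86 and -0.75 at dim ones.

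The TRAPP complex, which tethers vesicles and activates RAB1, had most of its probe sets close to 0. Its 12 probe sets had a median of -0.07, with 3 lower and 1 higher in all 3 sows, beside 14.8% and 14.9% of all probe sets. TRAPPC2L gave 490.2, 405 and 294 with oocytes and 467, 481 and 334 with embryos, a log2 ratio of 0.12 (SE 0.22), higher in 2 of 3 sows. For TRAPPC4, a core subunit, the brightest probe set gave 319, 328 and 257 against 331, 352 and 301, higher with embryos in each sow at 0.12 (SE 0.14). The second brightest gave 238, 187 and 175 against 201, 158 and 154, lower in each sow at -0.23 (SE 0.18, unadjusted p = 0.243, and 0.036 when paired). The dimmest had the lowest log2 ratio of all members, -1.43 (SE 0.50, unadjusted p = 0.0204), at the dim signals of 8.5, 10.0 and 11.7 against 4.9, 3.5 and 3.1, where no detection call was used. TRAPPC13 was lower with embryos without overlap, at -0.14, with 135, 137 and 145 against 131, 129 and 120.3. TRAPPC1, TRAPPC2, TRAPPC3, TRAPPC5, TRAPPC9, TRAPPC11 and TRAPPC12 lay between -0.09 and 0.02.

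Golgins are coiled-coil proteins on Golgi membranes, and this was the group with the lowest median (-0.18 over 10 probe sets) and with the only member above 0 at an unadjusted p under 0.05. The group was taken by symbol, so its median also counts GOLGA7, described last. GOLGA1 (golgin-97), of the trans-Golgi network, gave 41.8, 30.0 and 36.2 with oocytes and 47.3, 58.1 and 63.2 with embryos, read by the brighter of its pair of probe sets. All 3 embryo horns were above all 3 oocyte horns, at a log2 ratio of 0.64 (SE 0.24, unadjusted p = 0.0262, and 0.0144 when paired), although its dimmer probe set lay at 0.16. GOLGA5 (golgin-84), a tether of vesicles within the Golgi, lay on the lower side at both probe sets. The brighter gave 88.8, 71.1 and 69.1 against 78.9, 52.5 and 43.6, a log2 ratio of -0.43 (SE 0.24, unadjusted p = 0.115, and 0.0226 when paired). The dimmer gave 50.6, 24.2 and 33.3 against 28.8, 17.9 and 18.9, at -0.70 (SE 0.33). Each was lower in every sow, with overlapping groups. GOLGA2 (GM130), of the cis-Golgi, gave 188, 147 and 118 against 138, 97.2 and 157 at its brightest probe set, at -0.22 (SE 0.24), lower in sows 1 and 2 and higher in sow 3, with its other 3 probe sets between -0.28 and -0.12. GOLGA7, a partner of a palmitoyltransferase, gave 367, 488 and 581 against 376, 498 and 558, a log2 ratio of -0.00, and lay at -0.82 at a very dim one.

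A few symbols remain. SEC22C, the one SEC22 family protein named with 1 symbol, was dim, with 26.6, 25.9 and 27.4 against 22.2, 31.2 and 27.4 and a log2 ratio of -0.01. SEC14L1 and SEC14L2 share the spelling but stand apart from the route, as they bind lipids in the cytosol. SEC14L1 gave 265, 331 and 233 with oocytes and 270.0, 311 and 254 with embryos (log2 ratio 0.02), and SEC14L2 gave 16.4, 4.8 and 15.0 against 22.7, 18.7 and 14.9 (0.79, SE 0.52), where a dim oocyte horn of sow 2 stood far below the rest.

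The study's list of altered probe sets holds 7 of the 102 (6.86% of the members, where the list is 0.875% of all probe sets tested, and 3.33% of the list, where the members are 0.425%), those of SEC63, TRAM1, ARFGAP3, COPB1, TMED7, TRAPPC4 and GOLGA5 at the dimmest probe set of TRAM1, the dimmer of COPB1, the second brightest of SEC63 and TRAPPC4, the brightest of ARFGAP3 and GOLGA5, and the TMED7 one read as TICAM2. All 7 were lower in all 3 sows, with a median of -0.39, but the list was made from these same arrays, so that this is no independent evidence. COPB1 and TRAM1 had an unadjusted p under 0.05, and all 7 did in the paired fit. The 14 other probe sets of these 7 genes come from the same RNA and were reached through that list, so they are no independent evidence either. They had a median of -0.21, with 8 lower and 1 higher in all 3 sows. Of all probe sets 14.8% were lower, and of those other than the brightest of a gene with several 24.4%. The 11 of them with above-median signal had a median of -0.12, with 5 lower and 1 higher. Without the listed probe sets 25 of 95 members (26.3%) were lower in all 3 sows, beside the 14.8% of the array, and their median was -0.08.

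Partners of the same route, which the symbol rule does not reach, lay around 0. Of 78 genes listed for the SRP receptor, signal peptidase, oligosaccharyltransferase, membrane insertion, coat assembly and Golgi fusion, 57 were measured, each by its brightest probe set. Their median log2 ratio was 0.01, 26 lay below 0 and 31 above, 8 were lower and 10 higher in all 3 sows (13.6% and 15% of the brightest probe sets of all genes were), and 0 passed an adjusted p of 0.05 with limma (1 had an unadjusted p under 0.05, as 2.88% of all probe sets had, and 5 had in the paired fit, as 8.70% had). The brightest probe sets of the 61 member genes, which are the like measure, had a median of -0.02, with 11 lower (18%) and 6 higher (9.84%) in all 3 sows. CNIH1, a cargo receptor of COPII vesicles, gave 229, 239 and 234 with oocytes and 276, 339 and 292 with embryos, higher without overlap at 0.36 (SE 0.12, unadjusted p = 0.0189). The others above 0 with the smallest p were NSF, the fusion ATPase (0.30), and MCFD2, a cargo receptor subunit (0.22). Below 0 they were SRPRA, the docking subunit of the SRP receptor (-0.21), GOSR1, a Golgi SNARE (-0.36), and DDOST, of the oligosaccharyltransferase (-0.16). SRPRA and DDOST were lower without overlap, as were SPCS3, MAGT1 and CAMLG, while CNIH1 was the only partner higher without overlap. Over all probe sets 3.98% were lower and 4.03% higher without overlap.

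When the control transcripts' 5'/3' ratio (log2) entered the fit as a covariate, the members' median moved from -0.09 to -0.039, and to -0.061 once the sow was added to that fit. The dimmest TRAM1 probe set lay at -0.34 and -0.93 in these fits, the TMED7 probe set read as TICAM2 at -0.04 and -0.31, and the dimmer one of COPB1 at -0.31 and -0.31. The brighter one of GOLGA1 lay at 0.62 and 0.59. The dimmest one of KDELR2 lay at -0.18 and then at 0.20, and that of SEC63 at -0.10 and 0.32, so that both changed side with the sow in the fit. The brightest TMED7 probe set, at -0.10 without these terms, lay at 0.07 and then at -1.11, with an unadjusted p = 2.7e-05 and an adjusted p = 0.132, the smallest adjusted p of any member in any of the fits run. The brightest one of GOLGA2, at -0.22 without them, lay at 0.04 and 0.71 (unadjusted p = 0.0179 in the latter). Of the 43 named probe sets 9 changed sign in each of these fits. No member passed an adjusted p of 0.05 in either fit. The ratio was lower in the embryo horn of every sow, so it goes along with the group. With the sow in the fit, the value given is that at an equal ratio in both horns, which no sow had. The fit with both terms leaves 1 residual degree of freedom, and its changes of side are not results about these genes.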

How the data were processed

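Uterine epithelial scrapings of 3 sows were measured on 6 arrays, 3 of horns with embryos and 3 of horns with oocytes. The deposited intensity values are signals that the authors computed with MAS5 5.1 per the labels, each array scaled to one 2% trimmed mean. These values lack the Lowess step that the study's methods describe, and no detection calls were used. Signals were floored at 0.1, put on the log2 scale and normalized by cyclic loess in limma 3.58.1 (R 4.3.3), and 124 control probe sets were then removed. All 23999 others were tested without a filter by lmFit and eBayes with a trend, with Benjamini-Hochberg adjustment at 0.05, on group alone. The study's own model, a mixed model on single probes with a random array effect and Bonferroni correction, was not fitted here, and like it this fit has no sow term. The script was tested on simulated data. A direction within a sow is that of the normalized values. The number of arrays limits the precision.

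Both horns came from one animal, and equal replicate numbers were taken as one sow. Deviations from the group means correlated at 0.207, 0.173 and 0.100 within the 3 pairs, so a paired fit, blocked by sow, is given too. Symbols came from the array annotation, and all 102 were found unchanged in the current gene table through their gene identifiers. Named with values were the 2 brightest probe sets of each role, the 5 of smallest p in each direction above the median signal, those in the study's list with all others of the same gene, and the 3 genes that varied most between probe sets. The members and lists were chosen with earlier results of these data known. Alternatives changed the normalization, the offset, the filter, the variance trend, the block, a 5'/3' covariate, the probe set per gene, the correction and the arrays used. Python 3.11.15 with matplotlib 3.10.9 made the figures.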

Additional observations from a re-analysis of the deposited data

How the results depend on the processing

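The count of members past an adjusted p of 0.05 was 0 under every alternative run, Bonferroni included. The main fit gave 4 members with an unadjusted p under 0.05 (3 lower, 1 higher), beside 2.88% of all probe sets. Quantile normalization, 32 added to the signals and no variance trend each gave 2 (1 lower), beside 2.88%, 3.13% and 3.73%. Scaling to the same median gave 7 (6 lower), beside 2.80%, and only above-median probe sets gave 1 (0 lower), beside 1.93%. The brightest probe set of each gene gave 1 (0 lower), where 125 of 6765 genes of the array had one. The paired fit, with the replicate block, gave 22 (19 lower, 3 higher), beside 8.70%. The 5'/3' covariate with the replicate block gave 12 (7 lower, 5 higher), beside 6.75%. Leaving out 1 array gave 0 to 10 in all, 0 to 9 lower (9 without the embryo horn of sow 1, 0 without that of sow 3) and 0 to 1 higher. Beside these, 2.31% to 4.32% of all probe sets had such a p, with 4.32% without the embryo horn of sow 1. The median log2 ratio of -0.09 became -0.069 with 32 added, -0.039 with the covariate, -0.061 with covariate and block and -0.025 for the brightest probe sets, and ran from -0.13 to -0.039 without 1 array, lying nearest 0 without the embryo horn of sow 2. The 32 members lower in all 3 sows became 11 of 61 with the brightest probe sets. Without 1 sow, an alternative chosen after seeing the data, 38 to 51 were lower and 13 to 20 higher in both remaining sows, where fewer sows have to share a direction. The 1 partner gene with an unadjusted p under 0.05 became 0 after scaling to the same median or without the trend, 2 with the covariate, 5 with the replicate block, 5 with both, and 0 to 2 without 1 array. The shares of all probe sets given above stand beside these counts too, with 5.22% for the covariate alone. The causes of these differences were not tested. Of 43 named probe sets 0 to 10 changed sign under an alternative, 10 of them without the oocyte horn of sow 3. Dim probe sets have wide ratios, and the dimmest TRAPPC4 probe set went from -1.43 to -0.23 with 32 added.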
